A study of Mus musculus with 9 samples.

Results

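Potassium channels set the resting membrane potential of heart muscle and end its action potential, and 80 genes of this family were measured in ventricles of mouse fetuses with 0, 1 or 2 intact copies of Esrrg, the gene of the nuclear receptor ERR gamma. They were all genes whose platform symbol starts with Kcn and that had a non-control probe set naming only that gene. Kcne1, Kcne2, Kcne3, Kcne4, Kcnq1 and Kcnh2 were left out. Abcc8 and Abcc9, the sulfonylurea receptors that pair with inward rectifiers, were added. This rule gave 80 of the 18193 genes measured, read by 165 of the 45037 probe sets that are not controls. The choice did not use any signal. Each gene is read from its brightest probe set by the 9-array mean, 33 of the 80 genes have a single probe set, and 3 of the 80 are non-coding RNAs (Kcnq1ot1, Kcnmb4os1 and Kcnmb4os2).

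Each of 9 Affymetrix arrays measured total RNA of cardiac ventricle from male fetuses at stage E18.5 (late gestation), with 3 arrays of homozygous knockouts (KO, ERRg -/-), 3 of heterozygotes (HET, ERRg +/-) and 3 of wild types (WT, ERRg +/+). The labels call the arrays of a genotype biological replicates. The source label names 3 ventricles per genotype, and whether an array holds 1 ventricle or a pool is not settled by it, so a p-value here reflects array-to-array spread only, which may be technical. No treatment is given, and the labels describe neither the construction of the knockout allele nor the strain. In bulk ventricle RNA, fewer cells of a type and less RNA per cell cannot be told apart.

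Inward rectifiers (Kcnj) hold the resting potential, and voltage-gated alpha subunits (Kcna to Kcnd, Kcnh, Kcnq) open on depolarisation and repolarise the cell. Silent alpha subunits (Kcnf, Kcng, Kcns, Kcnv) form no channel alone and alter the alpha subunits they join, tandem-pore channels (Kcnk) carry background current, and the Kcnn, Kcnma1 and Kcnt channels respond to internal calcium or sodium. Accessory subunits (Kcnip, Kcnab, Kcne, Kcnmb) change gating and trafficking.

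The deposited values are signals, an intensity per probe set on a linear scale. Esrrg itself had signals of 58.3, 58.1 and 39.3 in KO, 162, 164 and 162 in HET, and 281, 213 and 206 in WT ventricles, so the genotypes did not overlap in the order of their labels. Where its probe set lies relative to the deleted part was not checked. All 6 cardiomyocyte and 4 ventricular marker genes listed were above background, while 3 of 4 listed genes of skeletal muscle, Myod1, Myog and Myh3, were not. The fourth, Acta1, which fetal heart muscle also expresses, was above it, at 1795 to 2716 in KO, 1582 to 1929 in HET and 1440 to 1847 in WT ventricles, and did not pass the test. The spike-in controls split the arrays into a set of WT 1 to 3 with HET 1 and a set of KO 1 to 3 with HET 2 and HET 3, by a log2 ratio of the thr to the dap probe sets of -1.40 to -1.22 in the first set and -1.67 to -1.54 in the second. These sets are called array batches below, although the labels name no batch. The split was placed at the widest gap between the ordered ratios, a rule that always gives a split. WT 2, at -1.40, lay between the other arrays of the first set (-1.29 to -1.22) and those of the second. KO and WT each lie in 1 batch, so genotype and batch cannot be told apart between them, and adjusting for batch leans on HET replicate 1 alone. Median signals of the arrays ran between 36.6 and 45.9.

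The fetal ventricle carried signal for 32 of the 80 potassium channel genes. The background limit was a signal of 28.7, the 95th percentile of the mean of 77 olfactory, vomeronasal and taste receptor genes, whose median was 11.2 and of which 4 lay above the limit. All genes on the array passed this limit in 65.8% of cases, and the potassium channel genes in 40%. Of the 32, 10 had a mean signal of at least 200: Abcc9, Kcng2, Kcnip2, Kcnk3, Kcnj8, Kcnj11, Kcnj5, Kcna5, Abcc8 and Kcnk6. Another 4, namely Kcnmb4, Kcnn1, Kcna4 and Kcnn2, lay between 100 and 200. On every one of the 9 arrays, 21 of the 80 genes exceeded the limit, and 9 genes did so on none. The members just inside the limit were Kcnd3 (35.7), Kcnmb1 (34.6) and Kcnk13 (30.6), and those just outside it were Kcnip1 (28.2), Kcnip4 (27.9) and Kcnd1 (27.8), as signals at the mean log2 value. Signals of different probe sets are not amounts of RNA, since each probe set binds with its own strength, so the order of genes by brightness says only how far each stands above background.

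**Figure D1:**
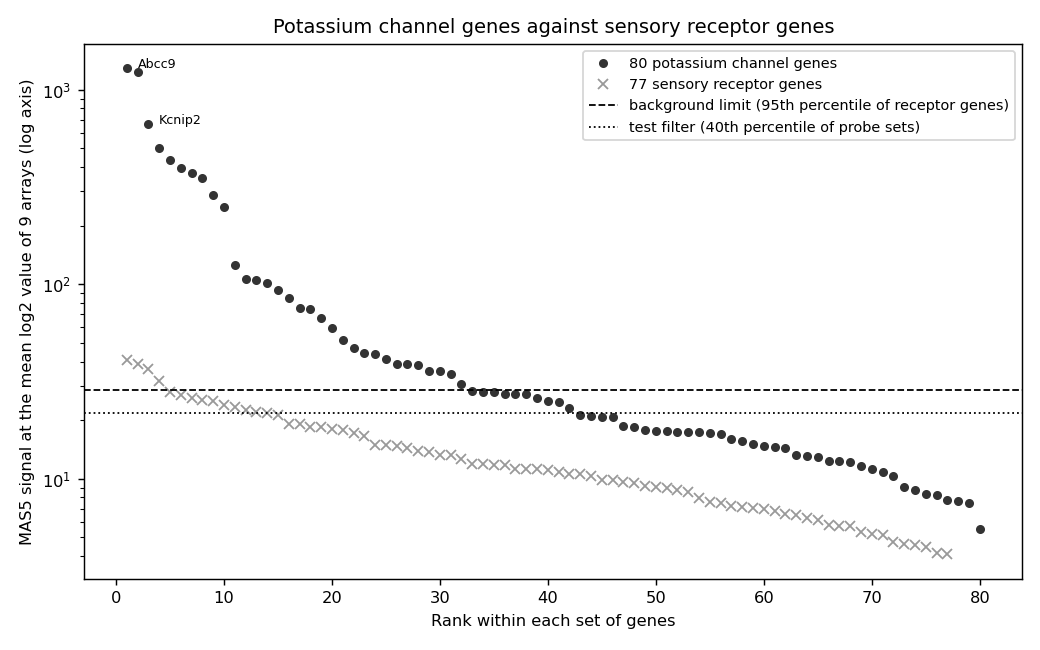
Signal at the mean log2 value of the brightest probe set (vertical log axis) for the 80 potassium channel genes, ordered from brightest to dimmest (horizontal axis), with 77 sensory receptor genes as grey crosses, the background limit of 28.7 dashed and the test filter of 21.7 dotted. The 32 genes above the limit lie between Abcc9 at the top and Kcnk13 at 30.6, and 48 lie below it.

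Every class of channel had genes on both sides of the limit except the pair of sulfonylurea receptors, of which both were above it. Above background were 7 of 15 inward rectifiers, 8 of 20 voltage-gated alpha subunits, 3 of 8 of their accessory subunits and 1 of 9 silent subunits. So were 4 of 12 tandem-pore channels and 4 of 8 pore subunits of the Kcnn, Kcnma1, Kcnt and Kcnu1 genes. The same held for 2 of 3 beta subunits of the large-conductance (BK) channel and 1 of 3 non-coding RNAs. Counted within a genotype, 35 genes were above the limit in KO, 37 in HET and 37 in WT ventricles, with 28 above it in all 3 genotypes. For 19 genes the genotypes fell on different sides, and 15 of these had a mean over the 9 arrays below the limit. The other 4 were Kcna7 and Kcnmb1, whose WT means were not above it, Kcnn4, whose HET mean was not, and Kcnk13, whose KO mean was not.

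The test for genotype took the 42 potassium channel genes whose mean log2(signal + 16) reached 5.24, the 40th percentile of the probe sets (a signal of 21.7), within a limma fit over 13028 genes. Between KO and WT ventricles no potassium channel gene passed an adjusted p of 0.05, against a background of 1.62% of all genes tested. The gene nearest the threshold was Kcnmb4, with a higher signal in KO. At an unadjusted p under 0.05 there were 6 of the 42 (14.3%), against 17.2% of all genes. Signals of KO and WT ventricles were fully separated in 6 of the 42 (14.3%), against 25% of all genes tested. Of these 6, Kcnmb4, Kcnj12, Kcnj5, Kcna7 and Kcnq1ot1 were higher in KO (all genes: 11.1%) and Abcc8 was lower (all genes: 13.9%). The log2 difference, KO minus WT on the log2(signal + 16) scale, was negative for 24 of the 42 (all genes: 51.6%) and positive for 18, with a median of -0.05 against -0.01 for all genes, and a median size of 0.24 against 0.18. The differences ran from -0.73 for Kcnj14 to 0.88 for Kcna7. The added 16 makes these values understate changes of dim genes. For 24 of the 42 genes the 95% interval of the difference lay within a 2-fold change either way, and for 10 it lay within 1.5-fold. The other 38 genes were not tested. Their mean signals lay between 6.48 and 24.7, and a gene high in 1 genotype only had more chance to reach the test. With the batch as a block the sign of KO minus WT changed in 10 of the 42, while in none did the arrays of one batch all lie beyond those of the other. The share of all genes that the batches separate was not counted. The ventricular marker Hey2 was separated by batch, at 316 to 348 in the first and 588 to 716 in the second. Its KO minus WT difference was 0.86, and -0.24 with the batch as a block.

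**Figure D2:**
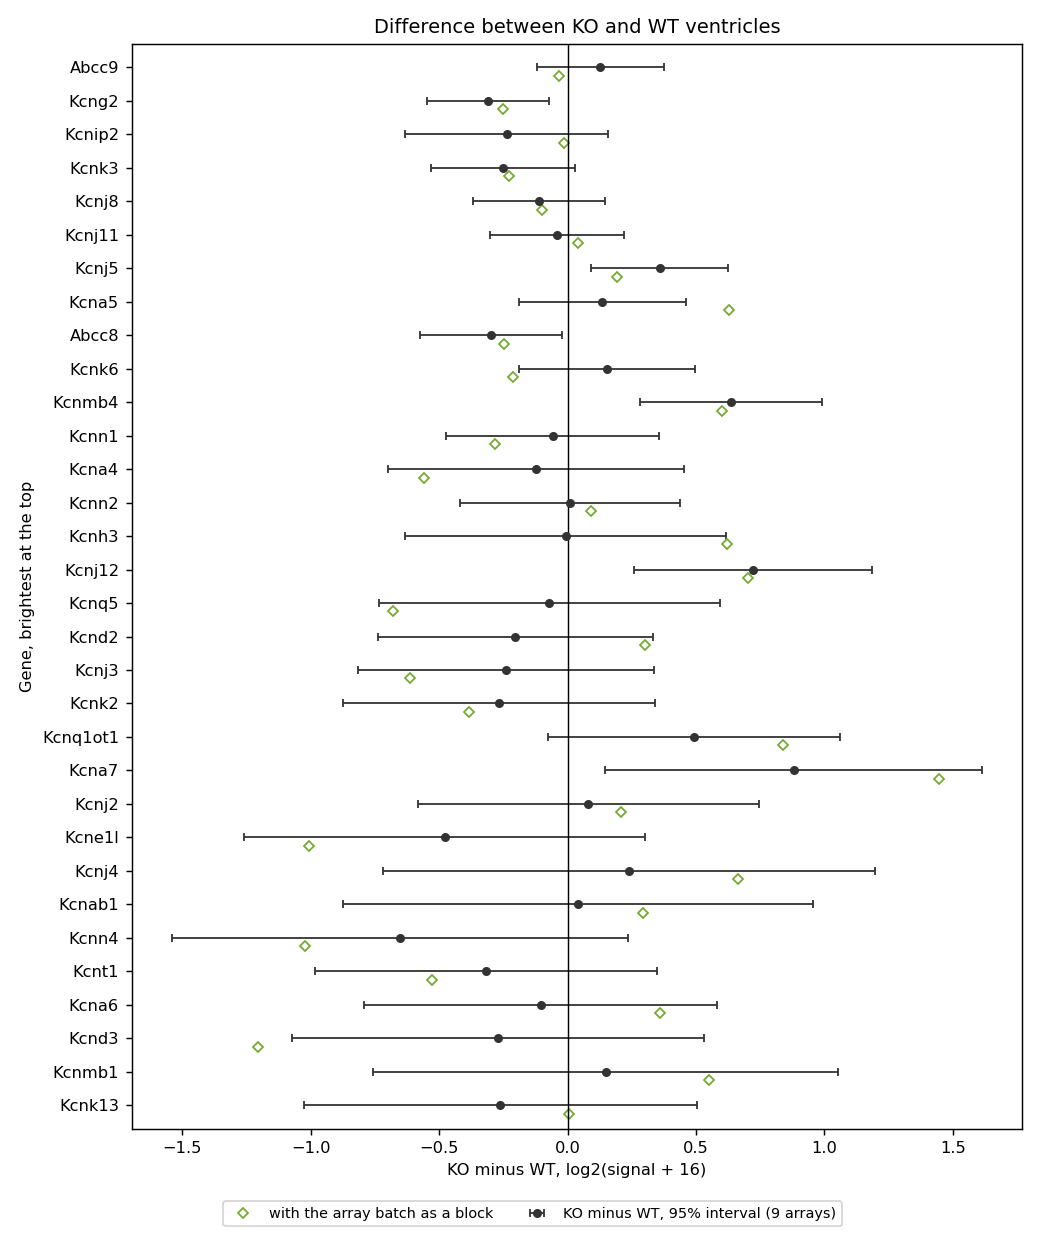
KO minus WT difference in log2(signal + 16) (horizontal axis) with its 95% interval from limma over 9 arrays for the 32 genes above background, brightest at the top, and the same difference with the array batch as a block (open diamonds). The intervals of Kcnmb4, Kcnj12, Kcnj5 and Kcna7 lie above 0 and those of Kcng2 and Abcc8 below it, before adjustment for the 13028 genes tested.

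Kcnmb4, a beta subunit of the BK channel best known from neurons, had signals of 143, 151 and 154 in KO, 144, 164 and 133 in HET, and 85.4, 98.8 and 87.2 in WT ventricles (probe set 1449471_at). All KO and all HET arrays lay above the highest WT array, and KO and HET overlapped. The means were 149 ± 5.74 in KO, 147 ± 16 in HET and 90.5 ± 7.27 in WT (SD, n = 3 each), a KO minus WT log2 difference of 0.64 ± 0.17 (SE, 95% interval 0.28 to 0.99, limma adjusted p = 0.0669). HET minus WT was 0.61 ± 0.17 (limma adjusted p = 0.293) and KO minus HET 0.03 ± 0.17, and both differences from WT use the same WT arrays. Within the batch that holds WT, HET replicate 1 lay 0.59 above the WT mean, and among the heterozygotes the arrays of the second batch lay 0.03 above the one of the first. Adjusting for batch gave a KO minus WT difference of 0.60 ± 0.31. The call depended on the setting: the limma adjusted p was 0.0359 without HET replicate 1, 0.0401 with array quality weights and 0.0486 with only the KO and WT arrays, within a range of 0.0359 to 0.823 over the settings tried. In those settings where Kcnmb4 passed, 840, 612 and 773 of all genes passed, in that order, against 211 in the main fit. The pore subunit that Kcnmb4 joins, Kcnma1, was not above background, with signals of 4.33 to 32.8 over the 9 arrays. Kcnmb1, the beta subunit of smooth muscle, had 11.7, 34.2 and 67.7 in KO, 56.5, 67.4 and 20.2 in HET, and 27.3, 34.8 and 23.0 in WT ventricles, and its KO minus WT difference was 0.15 ± 0.43. Its KO and HET arrays spread beyond the WT range on both sides. The long non-coding RNAs Kcnmb4os1 and Kcnmb4os2, named for the same locus, were below background, with 3.55 to 47.0 and 3.51 to 53.3 over the 9 arrays.

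**Figure D3:**
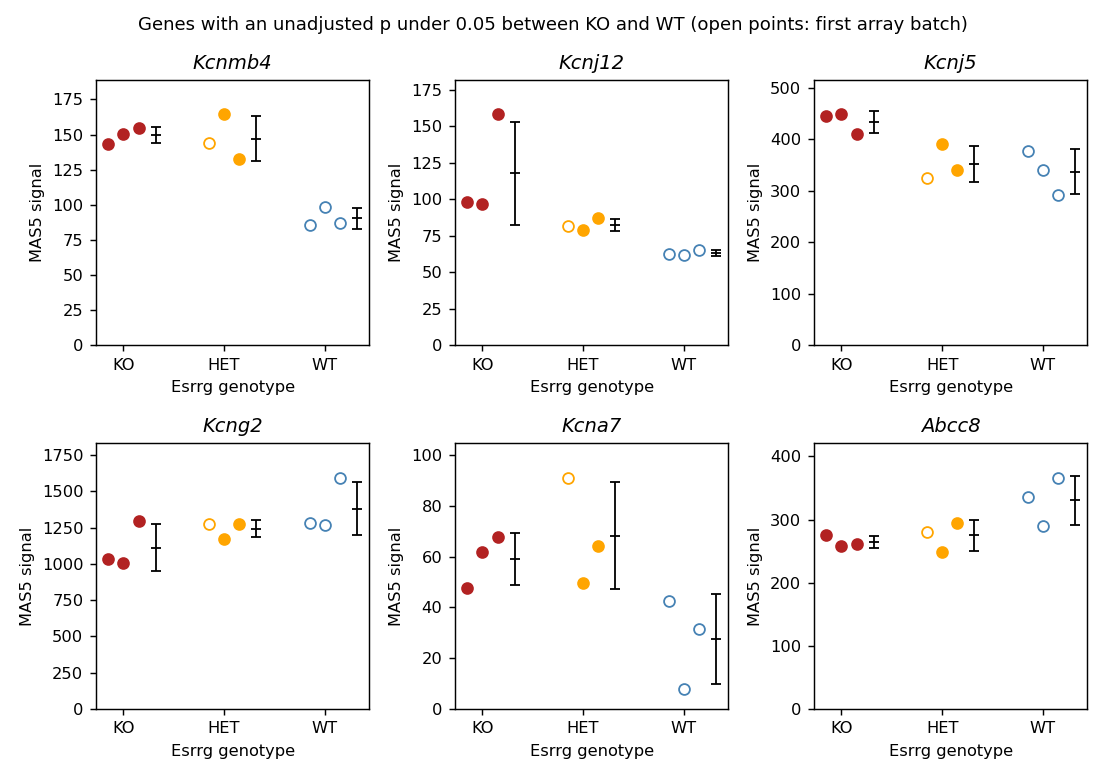
Signal on each array (points, linear axis) by genotype, KO, HET and WT from left to right, for the 6 genes with an unadjusted p under 0.05 between KO and WT, with the mean ± SD beside them and open points for the first array batch. In Kcnmb4 the KO and HET points lie between 133 and 164, above all WT points at 85.4 to 98.8.

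Kcnj12, an inward rectifier subunit of the cardiac resting current, had signals of 98.2, 96.6 and 158 in KO, 81.5, 79.0 and 86.9 in HET, and 62.2, 62.1 and 65.6 in WT ventricles (probe set 1422871_at). Each genotype lay apart from the others, with HET between KO and WT, and 1 KO array was far above the rest. The KO minus WT log2 difference was 0.72 ± 0.22 (SE, 95% interval 0.26 to 1.19, limma adjusted p = 0.101) and 0.52 without KO replicate 3. KO minus HET within the second batch was 0.40, HET minus WT within the first batch was 0.30, and KO minus WT with the batch as a block was 0.70 ± 0.40. Kcnj2, another inward rectifier of the resting current, had 28.7, 28.5 and 61.1 in KO, 69.7, 47.4 and 81.2 in HET, and 34.5, 39.6 and 30.3 in WT ventricles. Only its HET arrays stood above WT, by 0.67 ± 0.31 on the log2 scale (limma adjusted p = 0.426), and its KO minus WT difference was 0.08 ± 0.31 (95% interval -0.58 to 0.75). Kcnj4, a further subunit of this kind, ranged from 10.1 to 81.3 over the 9 arrays with all genotypes overlapping, and KO minus WT was 0.24 ± 0.45. Kcnj14, also of this kind, was below the background limit, with 4.40, 10.6 and 25.6 in KO, 53.2, 31.2 and 53.4 in HET, and 42.0, 18.4 and 35.5 in WT ventricles. Its KO arrays lay below every HET array (KO minus HET -1.11 ± 0.39, limma adjusted p = 0.989) but overlapped WT (KO minus WT -0.73 ± 0.39, limma adjusted p = 0.367).

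Kcnj5 and Kcnj3 form the acetylcholine-activated channel, which G proteins open and which is best known from atrium and pacemaker cells. Kcnj5 had signals of 445, 448 and 410 in KO, 324, 391 and 341 in HET, and 378, 341 and 291 in WT ventricles (probe set 1441590_at). Its KO arrays lay above all others, and HET and WT overlapped. The KO minus WT log2 difference was 0.36 ± 0.13 (SE, 95% interval 0.09 to 0.63, limma adjusted p = 0.147), KO minus HET was 0.29 ± 0.13 (limma adjusted p = 0.989), and KO minus WT adjusted for batch was 0.19 ± 0.22. A dimmer probe set of Kcnj5 gave 169 ± 35.0 in KO and 155 ± 25.1 in WT ventricles (SD, n = 3 each), with a difference of 0.10 ± 0.20. Kcnj3 had 52.2, 42.0 and 85.0 in KO, 59.9, 104 and 64.4 in HET, and 81.8, 62.2 and 70.2 in WT ventricles, with all genotypes overlapping and a KO minus WT difference of -0.24 ± 0.27 (95% interval -0.82 to 0.34). The summed signal of 4 atrial marker genes was 18201 to 23216 in KO, 19883 to 22005 in HET and 17934 to 23255 in WT ventricles, overlapping between all genotypes, and none of the 4 passed the test. Myl7 and Myl4 made up most of this sum and differed in sign. All KO arrays of Myl7 (10568 to 12459) lay above all WT arrays (8244 to 10496), with KO minus WT at 0.29 ± 0.09 (limma adjusted p = 0.124). KO minus WT was -0.19 for Myl4, -0.51 for Sln and 0.31 for Bmp10. The part of atrial cells in the Kcnj5 value was not tested.

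The 3 genes above with the smallest p between KO and WT are shown here by the 250 bases upstream of their annotated start, because the study removed a transcription factor. Sequences are from RefSeq on GRCm38.p6, written 5′ to 3′ on the strand of the gene, with each GC box (GGGCGG or its reverse complement CCGCCC) in capitals. The Kcnmb4 window is chr10:116473524-116473773 (minus strand), that of Kcnj12 is chr11:61065554-61065803 (plus strand) and that of Kcnj5 is chr9:32344345-32344594 (minus strand).
Kcnmb4: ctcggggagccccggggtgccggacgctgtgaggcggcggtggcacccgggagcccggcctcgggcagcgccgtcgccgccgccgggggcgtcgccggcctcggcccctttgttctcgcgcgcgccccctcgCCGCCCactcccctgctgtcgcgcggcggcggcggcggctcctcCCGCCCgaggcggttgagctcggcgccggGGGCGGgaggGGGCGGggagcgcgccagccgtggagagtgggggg
Kcnj12: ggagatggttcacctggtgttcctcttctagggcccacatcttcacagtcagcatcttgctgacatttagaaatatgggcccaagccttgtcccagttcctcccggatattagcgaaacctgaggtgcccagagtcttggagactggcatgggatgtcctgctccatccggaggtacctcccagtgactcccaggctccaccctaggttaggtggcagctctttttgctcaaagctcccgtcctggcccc
Kcnj5: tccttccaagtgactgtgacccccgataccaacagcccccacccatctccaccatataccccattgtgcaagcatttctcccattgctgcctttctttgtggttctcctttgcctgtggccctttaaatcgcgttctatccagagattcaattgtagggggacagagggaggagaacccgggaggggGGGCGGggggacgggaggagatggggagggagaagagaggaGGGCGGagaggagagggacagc
The Kcnmb4 window had a GC content of 83.6% and 4 GC boxes, the Kcnj5 window 58% and 2, and the Kcnj12 window 56% and none. GC boxes stood in 45.2% of the 84 windows of potassium channel genes (61 of the 80 genes had a window), against 32.7% of 32851 windows in the table. The half-site that ERR proteins bind, AAGGTCA on either strand, was in none of the 3 windows. Over all, it was in 3 of the 84 windows (3.57%), those of Kcnf1, Kcnh1 and Kcnj16, against 4.08% of the 32851. None of the 24 genes above background that had a window held it. These counts describe letters in 250 bases and not binding.

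The ATP-sensitive channel couples cell energy to excitability and is built from Kcnj8 or Kcnj11 pores with Abcc8 or Abcc9. Abcc9, the receptor of the ventricular and smooth muscle forms, was the brightest of the 80 genes, with signals of 1245, 1135 and 1442 in KO, 1347, 1407 and 1614 in HET, and 1158, 1348 and 998 in WT ventricles. In this probe set all genotypes overlapped, with KO minus WT at 0.13 ± 0.12 (95% interval -0.12 to 0.38) and HET minus WT at 0.32 ± 0.12 (limma adjusted p = 0.348). In all 3 probe sets of Abcc9 HET had the highest mean, with KO minus HET at -0.19, -0.27 and -0.61. In the dimmer probe sets all KO arrays lay below all HET arrays. They ran to 841 in KO and from 862 in HET, and to 546 and from 623 (limma adjusted p = 0.993 over all probe sets for each). Abcc8 had 276, 258 and 261 in KO, 281, 248 and 295 in HET, and 336, 290 and 366 in WT ventricles (probe set 1455765_a_at). Its KO arrays lay below all WT arrays, by -0.30 ± 0.13 on the log2 scale (limma adjusted p = 0.252), while HET overlapped both. A second probe set of Abcc8 gave 150 ± 21.2 in KO and 154 ± 30.0 in WT ventricles (SD, n = 3 each), a difference of -0.03 ± 0.19. Of the pore genes, Kcnj8 had 448, 396 and 443 in KO, 410, 388 and 425 in HET, and 528, 475 and 399 in WT ventricles. Kcnj11 had 429, 351 and 345 in KO, 445, 419 and 419 in HET, and 376, 351 and 431 in WT ventricles. Genotypes overlapped in both, with KO minus WT differences of -0.11 ± 0.12 (95% interval -0.37 to 0.14) for Kcnj8 and -0.04 ± 0.12 (95% interval -0.30 to 0.22) for Kcnj11. Kcnj8 and Abcc9 are also expressed by pericytes and vascular smooth muscle. The summed signal of 8 markers of those cells was 17326 to 19906 in KO, 17033 to 18460 in HET and 15552 to 17685 in WT ventricles. Acta2, with means of 15028 in KO and 12753 in WT ventricles, made up most of this sum. The median KO minus WT difference of the markers was 0.23, and none passed the test. It was 0.24 for Acta2, 0.35 for Myh11, 0.29 for Cnn1, 0.43 for Pdgfrb and 0.22 for Notch3. Tagln (-0.20), Cspg4 (-0.10) and Rgs5 (-0.07) went the other way. The part of those cells in the Kcnj8 and Abcc9 values was not tested.

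**Figure D4:**
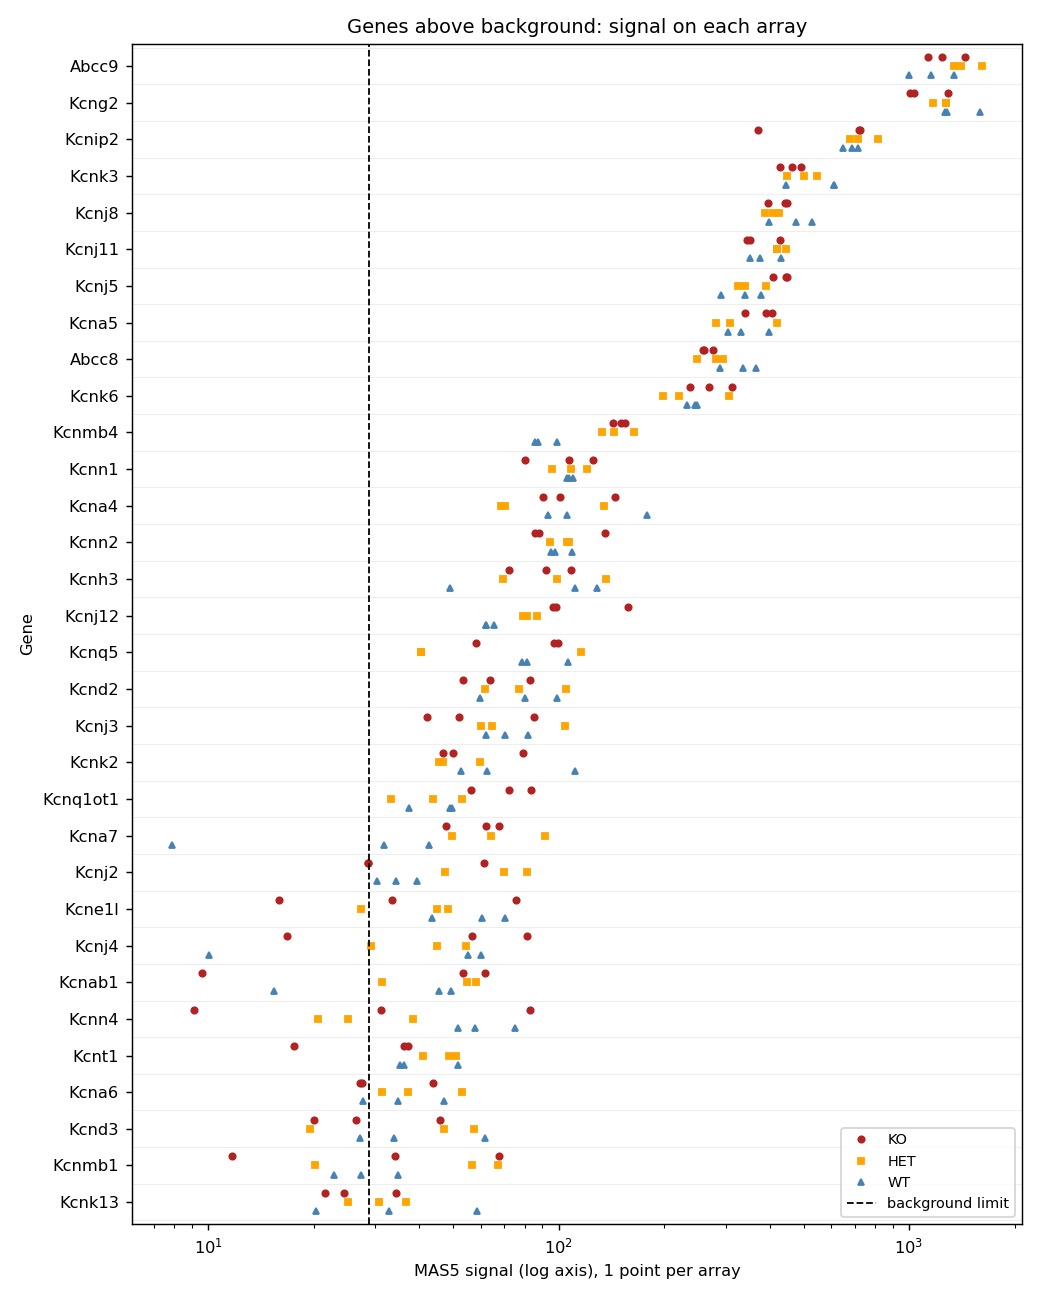
Signal of each array (log axis) for the 32 genes above background, brightest at the top, coloured by genotype (KO, HET, WT), with the background limit of 28.7 drawn. The 3 genotypes lie within each other's range for most genes, and the spread between arrays widens toward the limit.

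Among voltage-gated alpha subunits, Kcna5, which carries the ultrarapid delayed rectifier, was the brightest, with 392, 406 and 340 in KO, 421, 281 and 308 in HET, and 304, 399 and 332 in WT ventricles. Genotypes overlapped, and KO minus WT was 0.14 ± 0.15 (95% interval -0.19 to 0.46), or 0.63 ± 0.23 with the batch as a block. Kcna4, Kcnd2 and Kcnd3 carry the transient outward current of early repolarisation. Kcna4 had 145, 90.5 and 101 in KO, 68.5, 135 and 70.2 in HET, and 106, 93.1 and 179 in WT ventricles, Kcnd2 ranged from 53.3 to 105 and Kcnd3 from 19.6 to 61.6 over the 9 arrays. No genotype stood apart in the brightest probe sets of these 3 genes, whose KO minus WT differences were -0.12 ± 0.27, -0.20 ± 0.25 and -0.27 ± 0.38 in that order. In a second Kcnd2 probe set above background, KO arrays (73.4 to 88.6) lay above HET arrays (52.9 to 64.7) and overlapped WT. Its KO minus HET difference was 0.35 ± 0.23 (limma adjusted p = 0.993 over all probe sets), against -0.23 ± 0.25 in the brightest. Kcna7, an alpha subunit known from skeletal muscle and heart, had 47.8, 62.0 and 67.7 in KO, 91.2, 49.5 and 64.2 in HET, and 42.6, 7.90 and 31.7 in WT ventricles. Its KO and HET arrays lay above all WT arrays, and the lowest WT array was well below the background limit. KO minus WT was 0.88 ± 0.35 (limma adjusted p = 0.195) and HET minus WT 1.03 ± 0.35 (limma adjusted p = 0.32), both against the same WT arrays. Adjusting for batch gave KO minus WT values of 1.44 ± 0.61 for Kcna7, -0.56 for Kcna4, -1.21 for Kcnd3 and 0.30 for Kcnd2, so these values depended on HET replicate 1. Kcnh3 ranged from 48.9 to 137 and Kcnq5 from 40.4 to 116 over the 9 arrays, with KO minus WT at -0.01 ± 0.29 and -0.07 ± 0.31. Kcna6 lay at 27.2 to 53.1 with genotypes overlapping. Below background were 12 alpha subunits, among them Kcna2 and Kcnc1.

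Kcnip2, the calcium-binding partner that brings Kcnd channels to the membrane, had signals of 719, 370 and 723 in KO, 815, 713 and 680 in HET, and 689, 716 and 650 in WT ventricles (probe set 1436275_at). KO replicate 2 was the one low array, and the remaining KO arrays lay just above all WT arrays. KO minus WT was -0.24 ± 0.19 (95% interval -0.63 to 0.16) with all arrays and 0.07 without KO replicate 2. A second probe set of Kcnip2 (1425870_a_at) had 455, 367 and 468 in KO, 390, 538 and 392 in HET, and 294, 346 and 342 in WT ventricles. Here all KO and HET arrays lay above all WT arrays. The KO minus WT difference was 0.37 ± 0.15 (limma adjusted p = 0.219 over all probe sets). The brighter probe set had the opposite sign only with KO replicate 2 included. The dimmest probe set of Kcnip2 (1421783_a_at) lay below the background limit. It had 20.2, 3.16 and 29.0 in KO, 23.5, 3.74 and 43.6 in HET, and 29.7, 36.6 and 50.9 in WT ventricles. Its KO arrays lay below all WT arrays, by -0.79 ± 0.47 on the log2 scale (limma adjusted p = 0.455 over all probe sets). Kcne1l (a regulator of the Kcne family) had KO minus WT at -0.48 ± 0.37 and Kcnab1, a cytoplasmic beta subunit, at 0.04 ± 0.43. The arrays of Kcne1l ran from 16 to 75.8 and those of Kcnab1 from 9.59 to 61.5, with genotypes overlapping in both. Kcnip1 and Kcnip4 were tested but not above background, and HET minus WT of Kcnip4 was -0.88 ± 0.43 (limma adjusted p = 0.445). Kcnab2 was not tested.

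The one silent subunit above background, Kcng2, which modifies other voltage-gated subunits, was among the brightest, with 1036, 1003 and 1296 in KO, 1273, 1172 and 1277 in HET, and 1281, 1267 and 1594 in WT ventricles. Its highest KO array lay just above its lowest WT arrays, so KO and WT overlapped. KO minus WT was -0.31 ± 0.11 (SE, 95% interval -0.55 to -0.07, limma adjusted p = 0.155), and -0.25 ± 0.19 with the batch as a block. The summed signal of 6 cardiomyocyte marker genes was lower in all KO than in all WT arrays, at 97326 to 108596 in KO, 97675 to 108912 in HET and 109138 to 115206 in WT ventricles. None of the 6 passed the test, and their median KO minus WT difference was -0.11. It was -0.24 for Tnni3, -0.17 for Actc1, -0.17 for Myh7 and -0.05 for Tnnt2, but 0.07 for Myh6 and 0.04 for Ryr2. With the batch as a block Tnni3 was at 0.09, Actc1 at 0.01, Myh7 at -0.19 and Tnnt2 at -0.01. Myh6 was then at 0.11 and Ryr2 at 0.08. The part of cardiomyocytes in the Kcng2 value was not tested.

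Of the tandem-pore channels, Kcnk3, an acid-sensitive background channel, had signals of 462, 428 and 493 in KO, 503, 545 and 448 in HET, and 613, 612 and 446 in WT ventricles. WT replicate 3 lay among the KO arrays, and KO minus WT was -0.25 ± 0.13 (95% interval -0.53 to 0.03, limma adjusted p = 0.348). The dimmer probe sets of Kcnk3 had KO minus WT differences of 0.34 ± 0.26 and 0.11 ± 0.25, opposite in sign to the first. Kcnk6 had 270, 237 and 313 in KO, 198, 220 and 307 in HET, and 249, 233 and 245 in WT ventricles, with overlap throughout and KO minus WT of 0.16 ± 0.16. Kcnk2, a stretch-sensitive channel, ranged from 45.7 to 111 over the 9 arrays with overlap and KO minus WT of -0.27 ± 0.29. Kcnk13 lay at 20.3 to 58.7, near the limit. Kcnk1 was not tested.

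The small-conductance calcium-activated channels Kcnn1 and Kcnn2 had near-equal means in the genotypes. Kcnn1 averaged 104 ± 22.7 in KO, 108 ± 12.5 in HET and 108 ± 2.24 in WT ventricles (SD, n = 3 each), with KO minus WT of -0.06 ± 0.19. Kcnn2 averaged 103 ± 28.2 in KO, 102 ± 6.89 in HET and 101 ± 7.65 in WT ventricles (SD, n = 3 each), with KO minus WT of 0.01 ± 0.20 (95% interval -0.42 to 0.44). Kcnn4, the intermediate-conductance channel of blood and vascular cells, had 9.11, 31.2 and 82.7 in KO, 20.6, 25 and 38.5 in HET, and 75.2, 57.9 and 51.5 in WT ventricles. Its HET arrays lay below all WT arrays, while the KO arrays spread from the lowest to the highest of all, with HET minus WT at -0.83 ± 0.42 (limma adjusted p = 0.471) and KO minus WT at -0.65 ± 0.42 (limma adjusted p = 0.458). Kcnt1, a sodium-activated channel, had 36.3, 37.3 and 17.6 in KO, 41.0, 48.8 and 51.1 in HET, and 36.3, 35.2 and 51.8 in WT ventricles, its KO arrays below all HET arrays but not below WT. Kcnn3 and Kcnma1 were not tested.

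Kcnq1ot1, the non-coding RNA transcribed antisense to Kcnq1 and known for imprinted silencing of its neighbours, had signals of 56.5, 83.4 and 72.5 in KO, 53.0, 33.2 and 43.8 in HET, and 48.9, 49.8 and 37.5 in WT ventricles. Its KO arrays lay above all HET and WT arrays, which overlapped each other. KO minus WT was 0.49 ± 0.27 (limma adjusted p = 0.369) and KO minus HET 0.55 ± 0.27 (limma adjusted p = 0.989). Adjusting for batch gave 0.84 for KO minus WT. The other probe sets of Kcnq1ot1 above background had KO minus WT differences of 0.07 ± 0.31 and 0.73 ± 0.46, with KO and WT overlapping in both.

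Probe sets of one gene often differed in the sign of KO minus WT. Several probe sets lay above background for 13 of the 80 genes, and in 10 of these 13 the KO minus WT differences were not all of one sign (Abcc9, Kcna6, Kcnd2, Kcnh3, Kcnip2, Kcnj11, Kcnj3, Kcnk3, Kcnn1 and Kcnt1). Some of these differences were smaller than their SE, as for Kcnj11 (-0.04 ± 0.13 and 0.06 ± 0.17) and Kcnn1 (-0.06 ± 0.20 and 0.11 ± 0.23). The same share over all genes was not counted, so the count alone does not show that probe sets disagree. Over all 66 tested probe sets of potassium channel genes none passed the limma test between KO and WT, against 0.633% of all 27022 probe sets tested. At an unadjusted p under 0.05 there were 9 of the 66 (13.6%), 6 higher and 3 lower in KO, against 15.7% of all probe sets. As in Kcnip2, a second Kcnh3 probe set (1445805_x_at) separated KO from WT while the brightest, at -0.01 ± 0.30, did not. The second averaged 91.2 ± 11.0 in KO, 94.7 ± 15.7 in HET and 58.9 ± 4.04 in WT ventricles (SD, n = 3 each). Its KO arrays all lay above its WT arrays, with a difference of 0.51 ± 0.21 (limma adjusted p = 0.249 over all probe sets). Whether it also reads other transcripts was not tested. Kcnip1 showed the opposite direction in a second probe set below the background limit, with 9.88, 11.2 and 4.56 in KO, 34.2, 33.6 and 38.2 in HET, and 43.6, 29.2 and 52.0 in WT ventricles. All KO arrays of this probe set lay below all others, with KO minus WT at -1.22 ± 0.35 (limma adjusted p = 0.101 over all probe sets), while the brighter probe set of Kcnip1 gave 0.15 ± 0.43.

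**Figure D5:**
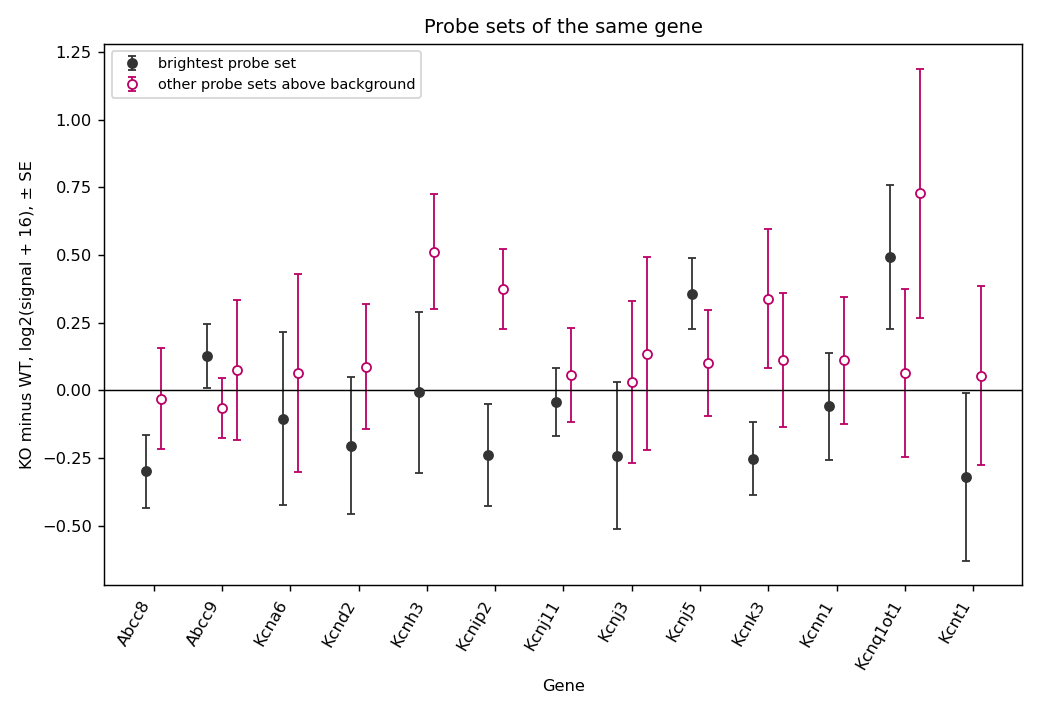
KO minus WT difference in log2(signal + 16) with its standard error for each probe set above background of the 13 genes that have several. In 10 of the 13 genes the differences lie on both sides of 0, as for Kcnip2 at -0.24 and 0.37.

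Heterozygous ventricles gave no potassium channel gene past the test against WT, where the background is 0% of all genes tested. At an unadjusted p under 0.05 there were 4 of the 42 (9.52%), against 11.5% of all genes. Fully separated were Kcnmb4, Kcnj12, Kcna7 and Kcnj2, which were higher in HET (all genes: 6.29%), and Kcnn4, which was lower (all genes: 7.41%). Together they make 11.9% of the 42, against 13.7% of all genes. The HET minus WT difference was negative for 18 of the 42 (all genes: 50.9%) and positive for 24, with a median of 0.03, and its smallest limma adjusted p was 0.293. Between KO and HET ventricles none of the 42 passed the limma test either, against a background of 0.0154%, and 2 of 42 (4.76%) had an unadjusted p under 0.05, against 4.81% of all genes. The KO arrays lay above the HET arrays for Kcnj5, Kcnj12 and Kcnq1ot1 (all genes: 4.76%) and below them for Kcnt1 and Kcnj14 (all genes: 5.73%). Together they make 11.9% of the 42, against 10.5% of all genes. The difference was negative for 25 of the 42 (all genes: 51.7%). The smallest limma adjusted p of KO minus HET was 0.989.

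Genes whose products anchor, modify or traffic potassium channels were listed as well, 34 in all, of which 26 were tested and 24 were above background. None passed the test in any of the 3 comparisons. Their median KO minus WT difference was -0.01, with 13 of the 26 negative, and 4 of the 26 (15.4%) had an unadjusted p under 0.05, against 17.2% of all genes. Higher in KO among these 4 were Fhl1, a LIM protein of the sarcomere, by 0.25 (limma adjusted p = 0.12) and the actin cross-linker Flna by 0.36 (limma adjusted p = 0.155). The scaffold genes Lin7b (-1.02, limma adjusted p = 0.179) and Dlg2 (-0.82, limma adjusted p = 0.286) were lower in KO but lay near or below the background limit: the KO mean of Lin7b was 14.9, and Dlg2 was not above background over the 9 arrays.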

How the data were processed

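The deposited values are an intensity per probe set on a linear scale, made with MAS5 per the submitters' processing notes, with no version given. MAS5 works on 1 array at a time. Each array's mean after trimming 2% at either end was 200, so arrays share a scale but not a distribution, which weighs most on dim genes.

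Signals were taken as log2(signal + 16). Of 45101 probe sets, 64 are controls, 34945 name 1 gene by the platform annotation, 932 several and 9160 none; all 80 gene symbols matched the RefSeq table of GRCm38.p6. Genes under the 40th percentile (log2 value 5.24) were left out. Genotypes were compared over all 9 arrays with limma 3.58.1 in R 4.3.3 (a mean for each genotype, two-sided moderated statistics with a trend on intensity), and p-values were adjusted over 13028 genes by the Benjamini-Hochberg method; the script was tested on simulated data. Adjusted p-values over probe sets come from the same fit on all probe sets. Array number limits precision. Motifs were searched in RefSeq promoter windows with Python 3.11.15. The genes described by name are those called, those with the smallest p (10 in KO minus WT, 5 in each other comparison), the 15 brightest, a list with known cardiac or vascular roles, and those whose probe sets disagree or that move with the batch. The members, lists and batch split were chosen with earlier results of these data known. Alternatives covered the added constant, filter, normalization, probe set choice, batch, array weights and single arrays left out.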

Additional observations from a re-analysis of the deposited data

How the results depend on the processing

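Each comparison was repeated under 22 alternatives. Between KO and WT, 1 potassium channel gene (Kcnmb4) passed with array quality weights and with only the 6 arrays of KO and WT, and the count ran from 0 to 1 when single arrays were left out, with 1 only without HET replicate 1; it was 0 under the others. HET minus WT and KO minus HET gave 0 throughout. Over all genes, the KO minus WT calls ran from 1 to 840 under the alternatives, against 211. They were 612, 773 and 840 in the settings where Kcnmb4 passed. The Kcnmb4 difference (KO minus WT) stayed between 0.47 and 0.72 on the log2 scale, with limma adjusted p between 0.0359 and 0.823. With the replicate number as a block, 0 potassium channel genes passed between KO and WT and their smallest limma adjusted p was 0.0931. After removing genotype means, same-numbered arrays correlated at -0.04 to 0.05 and different-numbered arrays at -0.06 to 0.08. These correlations gave no sign that the numbers pair samples, but so few arrays cannot settle it. Of the 20 results with the smallest p, 19 kept their sign throughout; Kcnk3 (KO minus WT) turned to 0.07 with the mean of its probe sets. Among 1998 values of named genes, 113 uncalled ones changed sign and the cause was not tested. The number of genes above background was 21 when the limit had to be passed on every array, 25 with the 99th percentile of the receptor genes (signal 39.5), 42 with the 40th percentile of all probe sets, and 29 with the mean of probe sets, against 32. Dim probe sets near the limit are the least precise.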

Other observations

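Of the potassium channel genes left out of the test, Kcnc1 had the highest single value, 72.9 on HET replicate 1, while its other arrays lay at 4.09 to 28.4. The marker gene Kdr, a vascular endothelial growth factor receptor, was lower in KO ventricles, with signals of 666, 623 and 675 in KO, 1095, 881 and 682 in HET, and 1229, 1051 and 1031 in WT ventricles. Its KO arrays lay below all others, and KO minus WT was -0.74 ± 0.14 (limma adjusted p = 0.0262), or -0.25 with the array batch as a block. None of the other 4 endothelial markers passed the test. Their KO minus WT differences were -0.09 for Pecam1, 0.31 for Cdh5, -0.03 for Tek and -0.03 for Tie1. The sum of all 5 includes Kdr, so it is no separate measure. It ran from 2543 to 2881 in KO, 2530 to 3294 in HET and 3006 to 3417 in WT ventricles. Fibroblast markers summed to 14508 to 14569 in KO, 12704 to 14329 in HET and 12980 to 13400 in WT ventricles, with KO above WT on all arrays and none of the 4 genes past the test.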
